A study of Mus musculus with 16 samples.

Results

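RNA was compared between the smallest and the largest growing mouse oocytes that were size-sorted, of 10-30 μm and of 60-65 μm in diameter, to describe which genes gained and which lost a part of the transcriptome over the growth of the oocyte. A gene was tested where at least 2 of the 4 libraries held it at 0.5 or more RPKM (read counts scaled to transcript length and library depth), which 10462 of the 25965 genes in the table did (40.3%). Of these, 9182 passed in both size classes, 580 passed only through the 10-30 μm libraries, 673 only through the 60-65 μm libraries and 27 with 1 library of each class, while 6547 genes were listed at 0 in all 4 libraries. The tested genes held 99.3% of the summed RPKM of each library.

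All oocytes came from wild-type C57BL/6 mice (substrain C57BL/6Babr), and they were freed from ovaries with collagenase and trypsin, washed to remove somatic cells and pooled by diameter under an eyepiece reticle. The 10-30 μm oocytes came from pups at the end of the first postnatal week, and the 60-65 μm oocytes from females late in the second and early in the third postnatal week, so diameter and age of the animal cannot be told apart. Strand-specific libraries of total RNA were made from 2 pools per class, called A and B, and pools of 40-45 μm and 50-55 μm oocytes (A and B of each) and 1 library of fully grown germinal vesicle (GV) oocytes are used here for the spread and the timing. Nothing in the labels says that the pools came from different animals, so the p-values measure the spread between these libraries, and since RNA per oocyte was not measured, every value is a share of a library and not an amount per cell.

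A mouse oocyte grows for about as long as its follicle is recruited from the resting reserve and develops toward the antral stage. During this time it stays arrested at the end of meiotic prophase, transcribes actively, stores messenger RNA and protein that the embryo later depends on, lays down the zona pellucida and sets DNA methylation across transcribed regions. The pairing and recombination of chromosomes belong to the fetal oocyte, whereas the oocyte near its full size must hold what is needed to keep the arrest and then to resume and complete meiosis.

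The libraries matched their labels in the markers of the oocyte, all 14 of which were tested and whose RPKM summed to 3361 and 3538 in 10-30 μm oocytes and to 2974 and 3109 in 60-65 μm oocytes. Of 17 granulosa cell markers only 3 reached the minimum, with a summed level of 2.36 and 2.75 in the small oocytes against 8.26 and 7.57 in the large ones, and of 8 stromal cell markers 3 did so, with 4.05 and 2.88 against 1.09 and 0.888. The endothelial list (2 of 7 tested) summed to 1.18 and 1.23 and then to 6.42 and 5.65, and no theca, leukocyte or erythroid marker passed. The depth implied by the smallest steps in the values was 99.4 M reads for 10-30 μm A, 159 M for B, 105 M for 60-65 μm A and 181 M for B, so the A library was the shallower of each class.

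Of the 10462 genes, 3323 (31.8%) rose and 3324 (31.8%) fell between 10-30 μm and 60-65 μm at a Benjamini-Hochberg adjusted p under 0.05 by limma, which is the source of each adjusted p given here. The log2 differences are 60-65 μm over 10-30 μm on the scale log2(RPKM + 0.1), with the standard error (SE) where it is given. Together the genes called made up 63.5% of those tested, and the median difference over all of them was 0.00, to which the scaling of the libraries centres it. A change of at least 2-fold was found for 1132 genes that rose (10.8%) and 846 that fell (8.09%). These 2-fold counts were lower with a larger pseudocount, as given in the section on the processing. The largest changes were more often gains, as 336 genes rose and 105 fell by 4-fold or more, and 75 rose and 8 fell by 8-fold or more. Both 60-65 μm libraries lay above both 10-30 μm libraries for 4206 genes (40.2%) and below them for 4390 (42.0%). A gene that passed the minimum through a single class was chosen in part for being higher there, and 608 of the genes that rose and 524 of those that fell were of that kind. Among genes that passed in both classes, 675 rose and 550 fell by at least 2-fold.

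**Figure D1:**
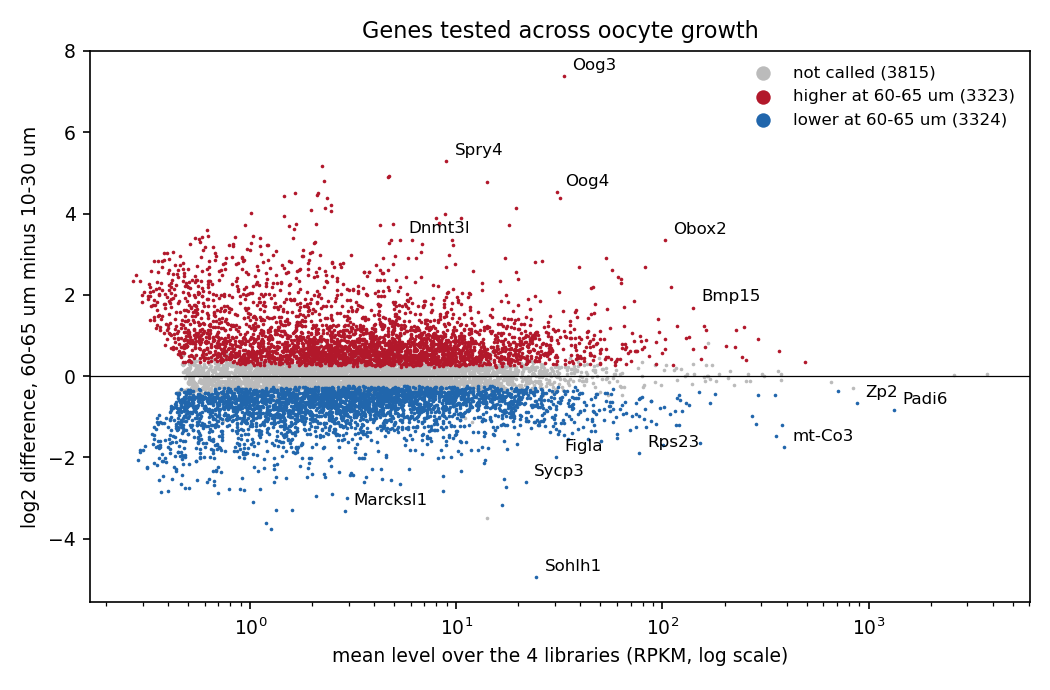
Each point is a gene of the 10462 tested, with its mean RPKM over the 4 libraries on a log axis and the log2 difference of 60-65 μm over 10-30 μm oocytes on the other axis. Genes that rose (3323, red) and fell (3324, blue) lie on either side of the 3815 that were not called (grey), and the points farthest from 0 are gains.

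The 12 largest gains, taken over called genes with a class mean of at least 5 RPKM, without overlap of the classes and not named Gm or Rik, were led by genes of oocyte-restricted families. Oog3, an oogenesin of the PRAME-like leucine-rich repeat family, was at 0.367 and 0.229 RPKM in the 10-30 μm libraries A and B and at 70.7 and 61.1 RPKM in the 60-65 μm libraries. The difference was 7.39 on the log2 scale (SE 0.42, adjusted p = 6.84e-06), the largest of all genes tested. Oog3 passed the minimum only through the large oocytes, and over the alternatives run its difference was 5.67 to 7.78. Its relatives Oog4 (2.57 and 2.35 against 63.0 and 55.1 RPKM, log2 difference 4.53) and Oog2 (0.965 and 1.14 against 16.4 and 14.4 RPKM, 3.76) rose with it, as did the predicted gene C87977 of the same cluster (4.76). The NLR family gene Nlrp9c rose from 1.08 and 0.827 to 16.8 and 16.3 RPKM (3.99), and the predicted gene AC130832.1 from 1.37 and 1.14 to 20.3 and 19.2 RPKM (3.88). Oog3, Oog4 and C87977 are on chromosome 4 of GRCm38, at 144157557-144162663, 143437164-143450324 and 144206775-144213318 in the table, whose coordinates are used for all genes named here. These families are made of near-identical copies, so the split of reads between members is uncertain.

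The other large gains were in genes of signalling, transcription and metabolism. Spry4, a feedback inhibitor of receptor tyrosine kinase signalling, stood at 0.259 and 0.448 RPKM at 10-30 μm and at 20.1 and 14.9 RPKM at 60-65 μm, a log2 difference of 5.29 (SE 0.19, adjusted p = 4.51e-06). It also passed the minimum only through the large oocytes, and its difference was 3.75 to 5.63 over the alternatives. Dnmt3l, the catalytically inactive partner of the de novo DNA methyltransferases, went from 0.825 and 0.888 to 11.3 and 8.25 RPKM (3.36, SE 0.19, adjusted p = 6.70e-06). Obox2, an oocyte-specific homeobox gene on chromosome 7, was already at 16.8 and 19.7 RPKM in the small oocytes and reached 189 and 183 RPKM (3.35). None of these 3 genes overlapped between the classes, as the rule requires. Ehf, an ETS-family transcription factor known from epithelia, Upp1, which encodes uridine phosphorylase, and Mettl7a2, a methyltransferase-like gene, rose by 3.75, 3.71 and 3.34.

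The 12 genes that fell most under the same rule held a pair of transcription factors of the young oocyte and 3 genes of meiotic prophase. Sohlh1, a basic helix-loop-helix factor needed in primordial and primary follicles, was at 49.6 and 45.0 RPKM at 10-30 μm and at 1.17 and 1.74 RPKM at 60-65 μm, a log2 difference of -4.95 (SE 0.22, adjusted p = 5.63e-06). Its partner Sohlh2 went from 8.36 and 8.18 to 1.17 and 1.49 RPKM (-2.55). Syce1, a central element protein of the synaptonemal complex, Smc1b, the meiosis-specific cohesin subunit, and Sycp3, of the axial element, fell by 3.0, 2.72 and 2.60 on the log2 scale, with Sycp3 at 43.1 and 31.7 and then at 5.24 and 6.86 RPKM. Mov10l1, an RNA helicase of piRNA biogenesis, fell by 2.66 to 1.23 and 1.56 RPKM.

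The remaining members of the 12 largest losses had no such common role. They were Marcksl1, an actin-binding MARCKS-like protein (-3.31), Maged1 of the MAGE family (28.4 and 31.3 against 2.73 and 3.76 RPKM, -3.17), Ift27, a small GTPase of intraflagellar transport (-2.82), Fkbp9, a peptidyl-prolyl isomerase of the endoplasmic reticulum (-2.61), Eif4ebp1, the repressor that binds the cap-binding factor of translation (7.32 and 7.70 against 1.06 and 1.36 RPKM, -2.54), and Malat1, a nuclear long non-coding RNA (30.0 and 28.5 against 4.48 and 5.49 RPKM, -2.53). For all 12 the GV library was lower still than the 60-65 μm libraries, and for Sohlh1 it held 0.274 RPKM.

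**Figure D2:**
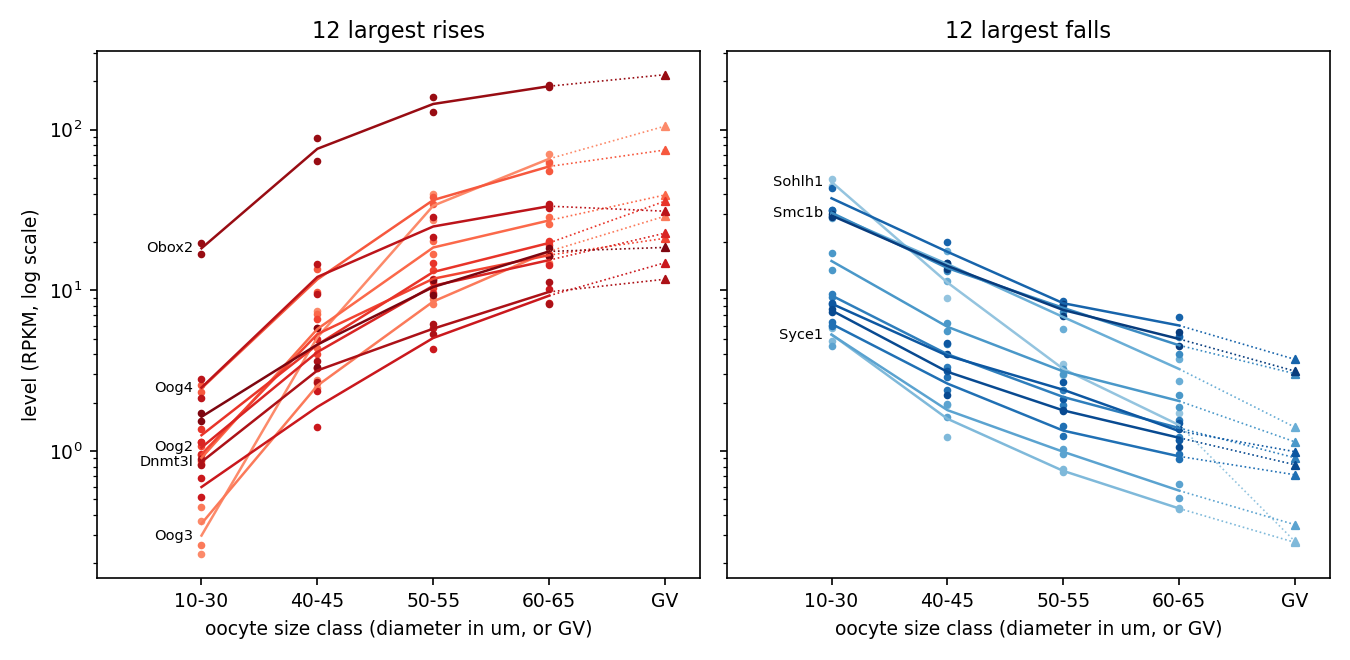
RPKM on a log axis of the 12 genes with the largest gains and the 12 with the largest losses, in libraries A and B of the 4 size classes and the single GV library. Oog3 runs from 0.367 and 0.229 RPKM to 70.7 and 61.1 RPKM, and Sohlh1 from 49.6 and 45.0 to 1.17 and 1.74.

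The sequence just before the start of the genes at both ends of this ranking is shown because several members of the oogenesin and Fbxw families rose and Sohlh1 moved furthest the other way. Each is the 250 bases upstream of the RefSeq start on GRCm38.p6, read 5′ to 3′ on the strand of the gene, and capitals mark CG dinucleotides and the hexamers CACGTG and CAGCTG, which are forms of the E-box and read the same on both strands. The RefSeq start lay within 21 bases of the start in the table for each gene printed. Positions are chr4:144162652-144162901 (minus strand) for Oog3, chr4:143450325-143450574 (minus) for Oog4, chr7:26403701-26403950 (minus) for Nlrp9c, chr9:109495855-109496104 (minus) for Fbxw19, chr2:25847249-25847498 (minus) for Sohlh1, chr4:129513331-129513580 (plus) for Marcksl1 and chr7:140787855-140788104 (minus) for Syce1.
Oog3: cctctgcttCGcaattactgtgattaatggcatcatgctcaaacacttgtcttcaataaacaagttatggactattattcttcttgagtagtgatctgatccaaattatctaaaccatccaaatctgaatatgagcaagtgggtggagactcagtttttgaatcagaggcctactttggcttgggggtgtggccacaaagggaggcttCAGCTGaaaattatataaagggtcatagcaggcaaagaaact
Oog4: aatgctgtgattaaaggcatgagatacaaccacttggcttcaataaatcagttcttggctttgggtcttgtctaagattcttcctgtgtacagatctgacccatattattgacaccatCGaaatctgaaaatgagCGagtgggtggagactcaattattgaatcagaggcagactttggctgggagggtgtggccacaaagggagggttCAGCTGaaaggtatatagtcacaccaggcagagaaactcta
Nlrp9c: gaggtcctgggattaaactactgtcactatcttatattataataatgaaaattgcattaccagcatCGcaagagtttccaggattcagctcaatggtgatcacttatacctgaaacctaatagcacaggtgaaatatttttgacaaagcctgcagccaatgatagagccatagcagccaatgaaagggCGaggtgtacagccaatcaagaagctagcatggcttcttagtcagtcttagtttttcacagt
Fbxw19: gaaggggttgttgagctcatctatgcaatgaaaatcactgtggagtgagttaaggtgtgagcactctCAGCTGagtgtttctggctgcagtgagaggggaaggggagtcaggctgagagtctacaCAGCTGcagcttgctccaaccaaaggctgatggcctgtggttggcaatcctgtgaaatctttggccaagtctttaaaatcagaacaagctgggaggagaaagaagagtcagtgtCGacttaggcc
Sohlh1: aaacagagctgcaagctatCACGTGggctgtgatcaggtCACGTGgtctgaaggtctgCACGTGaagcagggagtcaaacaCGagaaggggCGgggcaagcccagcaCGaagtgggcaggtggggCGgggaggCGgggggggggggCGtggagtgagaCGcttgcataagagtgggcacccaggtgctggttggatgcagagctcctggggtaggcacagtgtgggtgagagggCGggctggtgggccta
Marcksl1: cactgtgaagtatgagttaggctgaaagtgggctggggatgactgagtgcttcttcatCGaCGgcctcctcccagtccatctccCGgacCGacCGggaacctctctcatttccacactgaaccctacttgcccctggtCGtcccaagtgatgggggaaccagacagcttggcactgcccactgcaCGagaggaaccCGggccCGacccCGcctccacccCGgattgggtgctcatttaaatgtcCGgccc
Syce1: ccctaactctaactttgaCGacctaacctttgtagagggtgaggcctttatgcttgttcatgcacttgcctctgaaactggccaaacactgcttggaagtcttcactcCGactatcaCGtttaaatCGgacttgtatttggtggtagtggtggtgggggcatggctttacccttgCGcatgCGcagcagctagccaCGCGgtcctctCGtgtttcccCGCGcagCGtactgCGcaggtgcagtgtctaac

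Oog3 and Oog4 hold 1 CAGCTG each, 42 and 41 bases upstream of the start, and 1 and 2 CG dinucleotides. Of the 24 tested members of the oogenesin, Fbxw and Oas1 list 19 had an entry and 16 of those held CAGCTG, against 13.0% of all 32851 promoters of the same length, but these genes are duplicates that share sequence and fewer than 80% of the list had an entry, so the share for the list as a whole cannot be given. Their median number of CG dinucleotides was 1 (range 0 to 7), while it was 6 over all promoters and 16 over the 8189 tested genes with an entry, of which 11.9% held CAGCTG and 9.12% CACGTG (these are 78.3% of the tested genes, too few for a check over all of them). Sohlh1 holds CACGTG 3 times, a hexamer in 6.02% of all promoters, and 11 CG dinucleotides. Marcksl1 and Syce1 hold 12 and 13 and neither hexamer. A match describes these letters and does not show that a factor binds there.

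Measured as points of the summed RPKM, the change was spread over many genes. The gains over all genes added to 18.6 percentage points and the losses to the same, and the number of genes that together held 50% of the RPKM was 509 and 601 in the small oocytes and 614 and 585 in the large ones. The 8 genes that gained the most share were Bcl2l10, an apoptosis regulator of the BCL2 family (159 and 143 against 330 and 363 RPKM, 0.207 points), Plat, the tissue plasminogen activator (0.186), the chromatin reader Spin1 (0.180), Obox2 (0.178), the oocyte linker histone H1foo (0.164), the secreted growth factor Bmp15 (66.4 and 67.1 against 213 and 217 RPKM, 0.156), E330021D16Rik (0.150) and the ret finger protein-like gene Rfpl4 (0.133). All 8 rose by the test, from 0.63 on the log2 scale for H1foo to 3.35 for Obox2.

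The largest loss of share was of Padi6, the peptidyl arginine deiminase of the cytoplasmic lattices, with 1581 and 1815 RPKM in the small oocytes against 884 and 1006 RPKM in the large ones. Its share changed by -0.807 points (log2 difference -0.84, adjusted p = 0.00168) and had the rank of 3 among all genes by mean level. Tested without the minimum level, where many more low genes entered the fit, the calls of Padi6 and of Zp2 were lost (adjusted p of 0.0921 and 0.0992). The zona gene Zp2 went from 1068 and 1074 to 620 and 734 RPKM (-0.422 points), the mitochondrial transcripts mt-Co3 and mt-Co1 changed by -0.449 and -0.358 points, and Dppa3, which protects the maternal genome in the zygote, went from 590 and 475 to 213 and 248 RPKM (-0.322 points, log2 difference -1.20). Gm15298 and the elongation factor gene Eef1a1 changed by -0.234 and -0.193 points. Zp3 completed the 8 with 772 and 840 against 595 and 650 RPKM (log2 difference -0.37, adjusted p = 0.0498), and its call was lost under 11 alternatives, among them leaving out any 1 of the 4 libraries compared, with adjusted p from 0.0877 to 0.233.

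The families of genes were described through lists of pathways and gene families, whose members were counted as higher or lower by the same test. The lists were set against 31.8% of all tested genes that rose and 31.8% that fell, and against the median difference of 0.00. A list with counts near these percentages is not read as a change of that list. Members that passed the minimum through a single class were at most 2 in a list, except where a larger number is given and among the kinesin motors and the collagen genes (1 only through the large and 3 only through the small oocytes in both) and the amino acid transporters (1 and 2). A count that moved by over 1.5 times without 1 library is given with its value there.

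**Figure D3:**
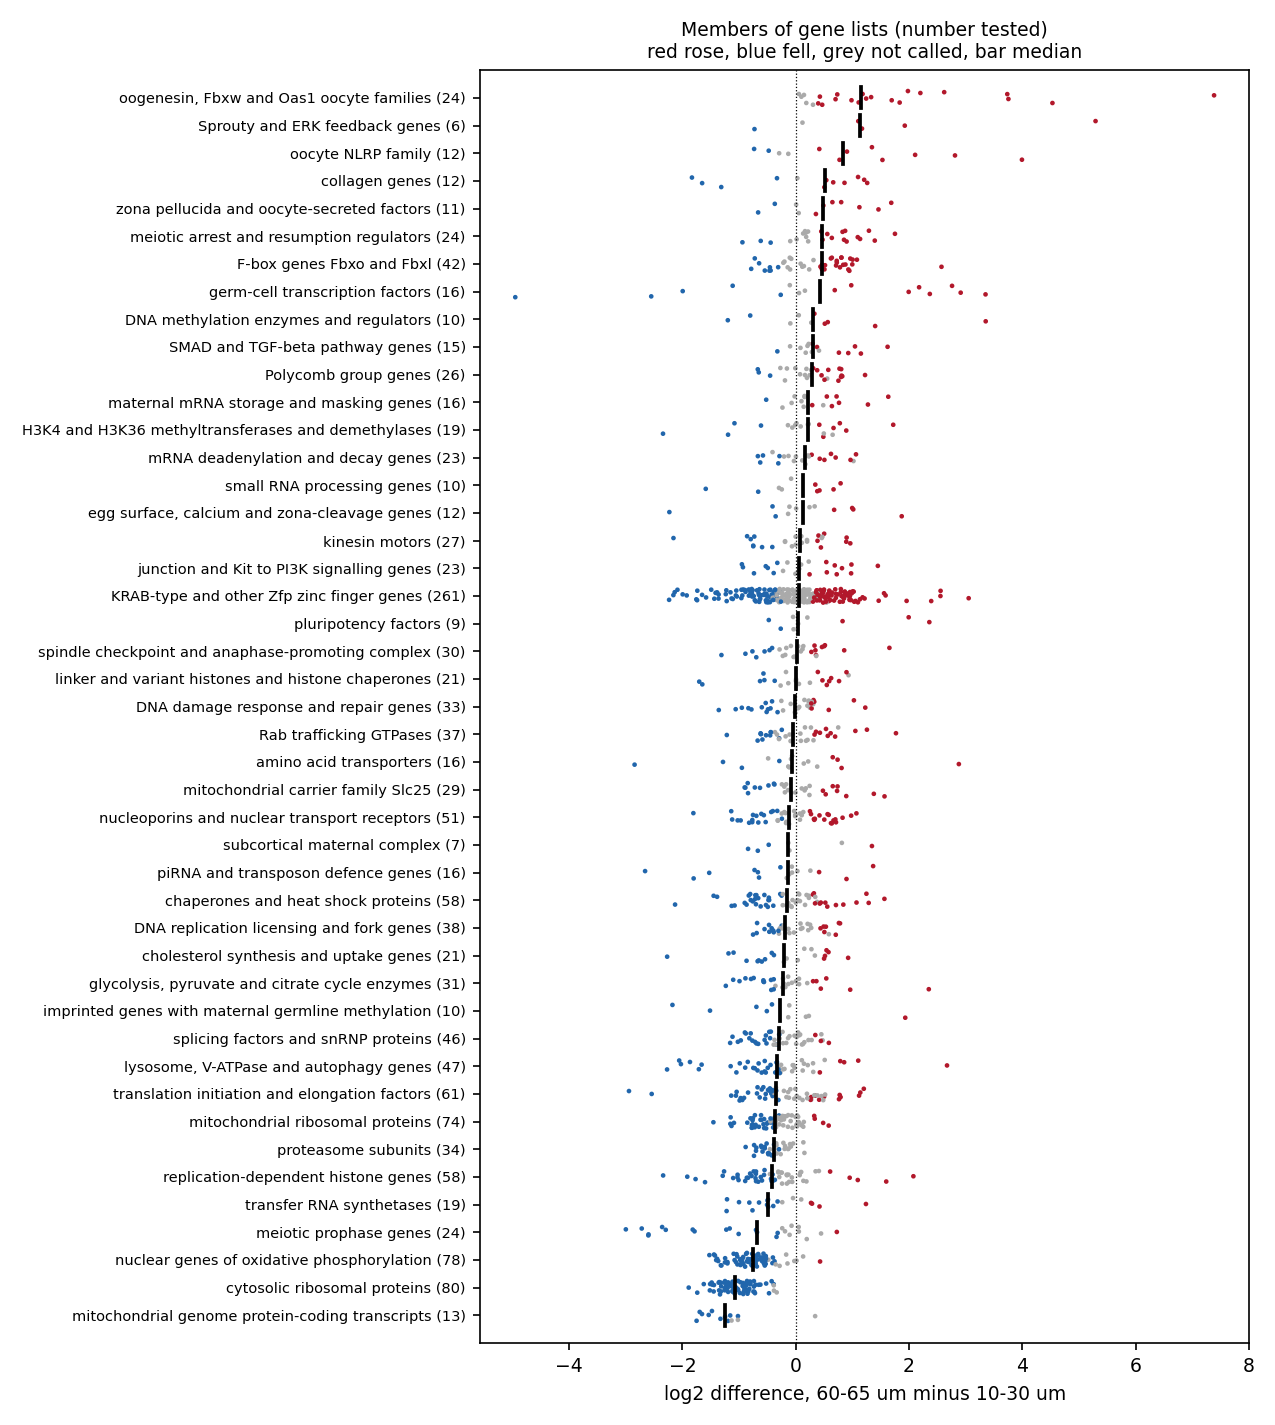
Log2 difference of 60-65 over 10-30 μm for every tested member of each list with at least 5 tested genes (points), with the median of the list (bar) and of all tested genes (dotted line). The cytosolic ribosomal proteins (median -1.07) and the mitochondrial genome (-1.25) lie lowest, and the oogenesin, Fbxw and Oas1 families (1.15) and the Sprouty and ERK feedback genes (1.14) highest.

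Genes of the cytosolic ribosomal proteins lost share together. Of 80 cytosolic ribosomal protein genes, all tested, 77 fell and none rose, 46 of them by at least 2-fold, with a median log2 difference of -1.07 and a range from -1.89 to -0.33. Their summed share of the RPKM was 3.90% and 3.08% in 10-30 μm oocytes A and B, 1.68% and 1.72% in 60-65 μm oocytes and 1.48% in the GV library. Both large-oocyte libraries were below both small-oocyte libraries, although the gap between A and B at 10-30 μm was wider than any other. Rps23, of the small subunit, had 137 and 107 and then 29.3 and 36 RPKM (-1.89, adjusted p = 2.91e-05), and Rps20 had 22.8 and 18.5 and then 5.92 and 6.23 RPKM (-1.74). The 3 members not called were Rpl28 (-0.39), Rpl36al (-0.33) and Rpl39 (-0.38).

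Translation factors followed in part, since 29 of 61 fell and 11 rose (median -0.34). Among them Eif5a2, an elongation factor paralog, went from 3.55 and 4.01 to 0.335 and 0.476 RPKM (-2.94) and Eef1a1 from 390 and 333 to 176 and 186 RPKM (-0.99). In the other direction Eef2k, the kinase that inhibits elongation factor 2, rose from 8.33 and 8.97 to 20.7 and 19.2 RPKM (1.2), and Eif2ak4, a kinase that limits initiation on amino acid shortage, rose by 1.14. Of 19 tRNA synthetase genes 12 fell and 4 rose, of which Iars gained most (1.24), and 2 rose without 60-65 μm A or without 60-65 μm B. All 3 tested snoRNA host genes fell, Snhg3 from 9.94 and 4.86 to 1.58 and 1.77 RPKM (-1.99). The splicing factors (20 of 46 fell, 3 rose, median -0.29) and the proteasome subunits (18 of 34 fell, none rose, median -0.39) were lower by less, with Srsf6 (-1.16) and Psmd13 (-0.88) the farthest from 0. The proteasome count of 18 became 11 without 10-30 μm A, 8 without 60-65 μm A and 10 without 60-65 μm B, and the rises among splicing factors 6 without 10-30 μm B and 1 without 60-65 μm A.

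Genes of oxidative phosphorylation fell in both genomes. Of 78 nuclear genes of the respiratory chain and ATP synthase 69 fell and 1 rose, 18 of the losses by at least 2-fold, with a median of -0.75, and their share was 1.72% and 1.46% and then 0.908% and 0.935%. Cyc1, the cytochrome of complex III, went from 10.8 and 10.9 to 3.63 and 3.74 RPKM (-1.52, adjusted p = 1.70e-05), and Ndufs8 of complex I fell by 1.44. The gene that rose was Atp5sl (0.43). Of the 13 protein-coding transcripts of the mitochondrial genome 10 fell, all by at least 2-fold, and none rose. Their share was 1.90% and 2.18% in the small oocytes against 0.612% and 0.797% in the large ones, with mt-Co3 at 643 and 554 against 163 and 192 RPKM (-1.75). The mt-Nd2 and mt-Nd4 transcripts (-1.02 and -1.13) were higher in B than in A in every class and were not called, nor was mt-Nd6 (0.34). With the 4 libraries compared fitted alone mt-Nd2 and mt-Nd4 were called (adjusted p of 0.0397 and 0.0131). They were also called with a term for the letters A and B in the fit (5.32e-05 and 4.25e-05). Without 10-30 μm A both were called (adjusted p of 0.0274 and 0.0291), and mt-Nd4 also without any 1 library of 40-45 or 50-55 μm, and without 60-65 μm A mt-Nd6 was called as higher (0.80, adjusted p = 0.0424). The count of 10 became 6 without library A of 60-65 μm and ranged from 6 to 12 when any library was left out. Mitochondrial ribosomal proteins fell in 36 of 74 cases and rose in 4, with a median of -0.36, and 3 of them passed only through the small oocytes. Without 60-65 μm A 23 fell and 2 rose.

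Short genes as a whole were lower in the large oocytes, which stands beside the result for these short genes. The median difference was -0.46 for transcripts under 1000 bp and 0.13 for those of 8000 bp or more, and in the same bins library A exceeded library B at 10-30 μm by 0.19 and fell below it by 0.18, a slope that the 60-65 μm pair did not show (-0.07 and 0.03). Against genes under 4000 bp outside the lists, with a median of -0.08 and 36.1% fallen, the ribosomal proteins of that length had a median of -1.05 (95.9% of 73 fell) and the nuclear oxidative phosphorylation genes one of -0.74 (89.6% of 67). Most genes of that comparison were longer than these lists, whose median lengths were 1770 and 1756 bp, and over all tested genes from 1000 to under 2000 bp the median was -0.22 and 41.5% fell. Without library A of 10-30 μm 73 of the 80 ribosomal protein genes fell, and the count was between 71 and 78 when any library was left out (61 to 72 for the nuclear oxidative phosphorylation genes). The part of transcript length in these results was not tested further.

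**Figure D4:**
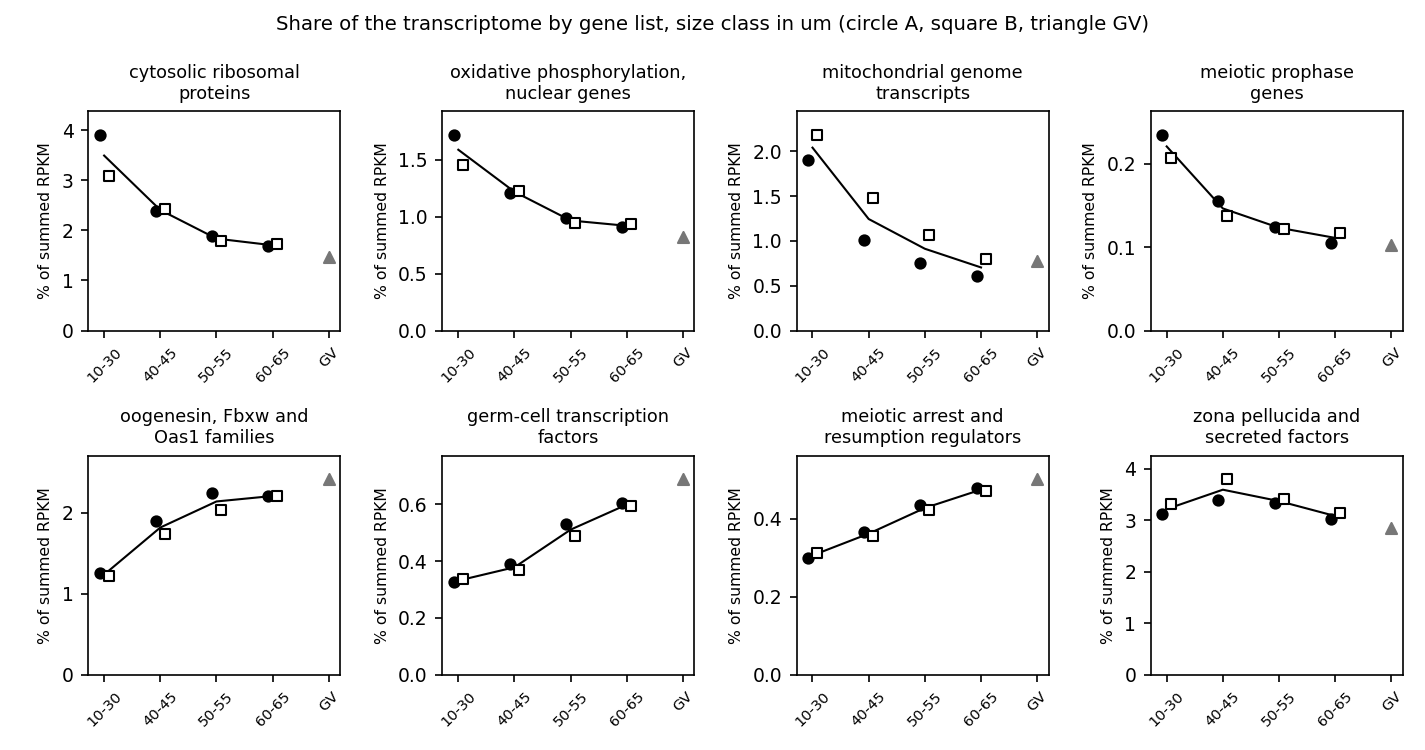
Share of the summed RPKM held by 8 gene lists in each library (circle A, square B, triangle the single GV library, line the mean of each class, axes in percent of RPKM). Cytosolic ribosomal proteins run from 3.90% and 3.08% to 1.68% and 1.72%, and the oogenesin, Fbxw and Oas1 families from 1.26% and 1.21% to 2.21% in both 60-65 μm libraries.

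Genes of meiotic prophase were mostly lower in the large oocytes. Of 24 tested genes, out of 35 in the table, 15 fell and 1 rose, 11 of the losses by at least 2-fold, and the median was -0.69. Of the 24, 3 passed the minimum only through the small oocytes. Besides Syce1, Smc1b and Sycp3, the genes that fell were led by the synaptonemal transverse filament gene Sycp1 (10.1 and 9.56 against 1.69 and 2.18 RPKM, -2.29), the axis protein gene Hormad1 (-2.36), the germ cell gene Tex11 (-2.60), Tex15 (21.8 and 18.1 against 5.23 and 5.89 RPKM, -1.82) and Prdm9, which places recombination hotspots (-1.79). Msh4, a mismatch repair homolog of crossover formation, rose from 3.0 and 2.74 to 4.52 and 5.08 RPKM (0.73, adjusted p = 0.00113), and 2 genes rose without 40-45 μm A or without 40-45 μm B. The summed share was 0.235% and 0.207% and then 0.105% and 0.117%.

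The genes that hold and release the meiotic arrest gained share instead. Of 24 tested, 13 rose and 3 fell (median 0.46), and their share was 0.30% and 0.311% at 10-30 μm against 0.478% and 0.470% at 60-65 μm. Gpr3, the receptor that keeps cyclic AMP high, went from 1.94 and 3.02 to 6.06 and 6.07 RPKM (1.29), and Pde3a, the phosphodiesterase that lowers it, from 5.41 and 8.37 to 16.2 and 13.7 RPKM (1.14). The cyclins Ccnb3 and Ccnb1 rose by 1.75 and 1.1, Mapk3 by 1.40, and Mos, the kinase that starts the MAP kinase cascade of the egg, from 61.5 and 55.0 to 109 and 108 RPKM (0.90). Lower were Prkar2b (-0.94), Cdc25c (-0.44) and Cdk1 (17.3 and 12.2 against 9.33 and 9.46 RPKM, -0.62), whose call was lost without 10-30 μm A and without 60-65 μm A or without 60-65 μm B (adjusted p from 0.0640 to 0.0821). The count of 3 lower genes was 1 without 10-30 μm A or 60-65 μm A. Among the spindle checkpoint and anaphase-promoting complex genes Bub1b rose from 25.5 and 26.2 to 85.4 and 77.4 RPKM (1.66), while 9 of 30 rose and 7 fell in all, and 4 rose without 60-65 μm B.

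Oocyte-restricted multicopy families gained. In the list of oogenesin, Fbxw and Oas1 families 19 of the 24 tested genes (31 in the table) rose and none fell, 13 by at least 2-fold, with a median of 1.15. Their share was 1.26% and 1.21% against 2.21% and 2.21%, and 2.41% in the GV library. Oog1 rose from 16 and 15.6 to 96.0 and 99.4 RPKM (2.62), Fbxw28 from 33.6 and 30.4 to 115 and 113 RPKM (1.84) and Fbxw19, whose upstream sequence is given above, from 17 and 15.9 to 77.9 and 73.7 RPKM (2.20). The Oas1 genes moved less: Oas1d was not called (0.15, adjusted p = 0.292), and Oas1c and Oas1h differed by 0.19 and 0.43. Without the minimum level 30 genes of the list were tested and 2 fell, and the lowest median in any alternative was 0.72. Several genes of the list are neighbours: 12 consecutive tested genes on chromosome 4 from 143437164 to 144377933 rose by at least 2-fold (Oog4, Oog3, Oog2 and C87977 among them), 9 on chromosome 9 from 109095436 to 109495875 (Plxnb1 and 8 Fbxw genes) and 4 on chromosome 12 from 87602688 to 88286055 (with Oog1). Other such runs, with no gene named Oog, Fbxw or Oas1, were 12 genes on chromosome 5 from 93482139 to 95804230 and 10 on chromosome X from 23219271 to 35179028. Another was of 4 on chromosome 7 from 14659708 to 15759800 (Gm4745, Obox2, Obox1 and Obox5). These runs were picked out after the values were seen, and such copies share reads.

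The NLRP genes of the oocyte rose in number but not in share. Of 12 tested, 8 rose and 2 fell with a median of 0.84, led by Nlrp9c (3.99) and Nlrp9b (5.28 and 6.58 against 40.5 and 43.4 RPKM, 2.81). The list held 1.73% and 1.77% of the RPKM in small oocytes against 1.55% and 1.69% in large ones, and most of it was Nlrp14 (941 and 901 against 710 and 792 RPKM, -0.29, not called) and Nlrp5, which fell from 396 and 426 to 290 and 298 RPKM (-0.48, adjusted p = 0.00533, or 0.0696 without the minimum level). In the subcortical maternal complex, an assembly of the egg cortex needed for the first cleavages, 3 of 7 genes fell and 1 rose. These were Padi6, Nlrp5 and Ooep (223 and 197 against 131 and 132 RPKM, -0.67) on the lower side and Nlrp2 on the upper (19.8 and 20.5 against 49.6 and 52.8 RPKM, 1.35), while Tle6 (-0.11, adjusted p = 0.435) was not called. Without 10-30 μm B 2 rose, and without the minimum level 1 fell. The complex held 2.85% and 3.33% of the RPKM and then 2.05% and 2.24%.

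The secreted and transcriptional genes of the oocyte moved both ways. Of the 11 zona pellucida and oocyte-secreted genes 7 rose and 2 fell. The growth factors Bmp15 (1.69), Fgf8 (11.1 and 12.1 against 30.2 and 34.0 RPKM, 1.46) and Gdf9 (419 and 449 against 580 and 529 RPKM, 0.36) rose, as did the secreted oocyte gene Oosp1 (113 and 91.3 against 228 and 215 RPKM, 1.13). The zona gene Zp2 fell by 0.66, and the count of 2 lower genes, Zp2 and Zp3, became 1 without any 1 library of the 10-30, 50-55 or 60-65 μm classes and 0 without the minimum level. Zp1 stood at 222 and 292 against 256 and 272 RPKM (0.05, adjusted p = 0.764), and the list as a whole held 3.12% and 3.32% and then 3.02% and 3.15%. Omt2b rose by 0.49, a call lost without 60-65 μm A (adjusted p = 0.0642).

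Of the 16 germ-cell transcription factors tested 8 rose and 5 fell (6 and 4 of them by at least 2-fold). The homeobox genes Obox1 (11.6 and 13.4 against 93.8 and 94.8 RPKM, 2.91), Obox5 (2.18) and Sebox (2.47 and 2.48 against 17.7 and 16.9 RPKM, 2.76), and Sall4 (4.83 and 9.66 against 28.5 and 26.4 RPKM, 2.0) rose beside Obox2. Gata4, which is also a factor of granulosa and theca cells, passed only through the large oocytes (0.173 and 0.150 against 1.34 and 1.17 RPKM, 2.37), and the granulosa cell markers summed to 2.36 and 2.75 against 8.26 and 7.57 RPKM in the same libraries. The basic helix-loop-helix factor Figla, which drives the zona genes, went from 52.7 and 45.0 to 11.6 and 12.6 RPKM (-1.99), and the TATA-binding protein paralog Tbpl2 from 17.9 and 18.6 to 7.84 and 8.92 RPKM (-1.11). Nobox (0.06), Lhx8 (-0.10) and Taf4b (0.16) were not called. The share of the list was 0.326% and 0.336% against 0.603% and 0.594%. Most of this gain was Obox2, which alone held 0.0178% and 0.0212% against 0.201% and 0.195% of the RPKM.

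Genes that write, read or remove epigenetic marks were mixed by list and large in a few members. Of 10 DNA methylation enzymes and regulators 5 rose (3 without 60-65 μm A) and 2 fell. Besides Dnmt3l, the de novo enzyme Dnmt3a rose from 2.22 and 2.83 to 3.76 and 3.48 RPKM (0.51, adjusted p = 0.00800, and 0.0577 without 60-65 μm A) and the oxidase Tet3 from 6.95 and 13.8 to 30.6 and 22.2 RPKM (1.40). Dnmt1, the maintenance enzyme, was at 328 and 416 against 376 and 389 RPKM (0.05, adjusted p = 0.739). Dppa3 and Tet2 (1.02 and 1.14 against 0.543 and 0.603 RPKM, -0.80) fell.

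Of 19 H3K4 and H3K36 methyltransferases and demethylases 6 rose (3 without 10-30 μm A or without 60-65 μm A) and 4 fell. Kdm2b rose from 2.45 and 3.96 to 11.8 and 9.29 RPKM (1.72), the H3K4 methyltransferase gene Setd1a by 0.89 (a call lost without 10-30 μm A or without 60-65 μm A, adjusted p of 0.0630 and 0.0816) and the H3K36 methyltransferase gene Setd2 from 3.35 and 4.76 to 6.48 and 6.30 RPKM (0.67). Kdm5b, an H3K4 demethylase, fell from 1.75 and 2.04 to 0.308 and 0.275 RPKM (-2.34), Kdm4c by 1.19, and Kdm1b, the H3K4 demethylase needed for maternal imprints, from 99.2 and 115 to 65.5 and 73.7 RPKM (-0.61). The comparison begins with the 10-30 μm oocyte, and earlier stages were not analysed here. Of 26 Polycomb group genes 12 rose and 3 fell, with Cbx2 (8.71 and 11.6 against 24.7 and 22.4 RPKM, 1.23) and Bmi1 (0.82) among the gains. Of 58 replication-dependent histone genes 30 fell (51.7%, median -0.42) and 5 rose, where 50.7% of all genes under 1000 bp fell with a median of -0.46, from Hist2h2bb (-2.34) to Hist1h2bk (13.6 and 10.5 against 51.3 and 50.3 RPKM, 2.08). Their share was 1.65% and 1.26% and then 1.32% and 1.33%, and its log2 ratio of -0.14 became 0.07 without 10-30 μm A. Copies of a histone gene are alike enough that their reads may be split between them.

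Lists of RNA regulation held members that rose and members that fell. Of 16 piRNA and transposon defence genes 7 fell and 3 rose: beside Mov10l1, the helper Mael went from 29.3 and 25.7 to 7.06 and 8.58 RPKM (-1.80) and Piwil2 from 13.3 and 15.3 to 4.79 and 4.97 RPKM (-1.53), whereas Tdrd12 rose from 17.4 and 15.3 to 30.3 and 30.4 RPKM (0.90) and Piwil1 by 1.37 from a low level. In the storage and masking of maternal messages 7 of 16 rose and 1 fell (0 without 10-30 μm B, 60-65 μm A or 60-65 μm B), with Zar1l (19.4 and 17.6 against 59.9 and 55.1 RPKM, 1.64), Pabpc1l, the poly(A)-binding protein of the oocyte (1.28), and Zar1 (162 and 178 against 279 and 280 RPKM, 0.72). Of 23 mRNA deadenylation and decay genes 7 rose (4 without 60-65 μm A or without B) and 5 fell (3 without 10-30 μm A or 60-65 μm A and 2 without 60-65 μm B), and of 10 small RNA processing genes 5 rose (3 without 60-65 μm A or without B) and 2 fell.

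F-box proteins choose the targets of a class of ubiquitin ligases. Of 42 F-box genes of the Fbxo and Fbxl kind 23 rose and 8 fell (median 0.46), where 5 had passed the minimum only through the large oocytes and 1 only through the small. The count of 8 became 4 without 10-30 μm A or 60-65 μm A and 5 without 60-65 μm B.

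Genes of signalling and of the lysosome were counted in the same way. Of 6 tested Sprouty and ERK feedback genes 4 rose, all by at least 2-fold, and Dusp5 fell by 0.73 (a call lost without 10-30 μm B or without 60-65 μm A, with adjusted p of 0.0884 and 0.125), while Dusp1, a MAP kinase phosphatase, rose from 0.765 and 1.35 to 3.95 and 4.36 RPKM (1.93). Among 15 SMAD and TGF-beta pathway genes 7 rose and 1 fell (0 without 10-30 μm B or 60-65 μm A), with Tgfbr3 (1.62) and Smad3 (6.12 and 8.18 against 16.6 and 15 RPKM, 1.15) the largest. Of 23 junction and PI3K signalling genes 9 rose and 7 fell (4 without 10-30 μm B and 3 without 60-65 μm A), and Cdh1, the epithelial cadherin, rose from 3.66 and 5.64 to 14.6 and 10.8 RPKM (1.45). Lysosome, V-ATPase and autophagy genes fell in 26 of 47 cases (3 passed only through the small oocytes), although the protease gene Ctsh rose from 2.17 and 2.52 to 15.1 and 15.7 RPKM (2.67) as Ctsl and Ctsa fell by 2.06 and 2.27. For 261 zinc finger genes named Zfp 80 rose and 79 fell, near the background in each direction, with 15 that passed only through the large and 23 only through the small oocytes.

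Lists of energy and lipid metabolism beyond the respiratory chain leaned lower without moving together. Of 31 genes of glycolysis, pyruvate and the citrate cycle 13 fell and 6 rose (median -0.22), with Pgk1, a kinase of glycolysis, at 12.1 and 9.77 against 5.07 and 4.92 RPKM (-1.10). Of 21 genes of cholesterol synthesis and uptake 10 fell and 5 rose. Scap, the escort of the pathway's main regulator, rose from 12 and 17.4 to 29.7 and 25.4 RPKM (0.93). The summed share of the cholesterol list was 0.24% and 0.233% against 0.251% and 0.243%, so the count and the share pointed in different directions. Of 58 chaperone and heat shock genes 26 fell (17 without 60-65 μm A) and 13 rose, the lowest being Dnajc15, a mitochondrial co-chaperone (24.8 and 19.6 against 4.45 and 5.5 RPKM, -2.13).

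Genome maintenance and transport lists held large changes in single members. The 36.4% of repair and 31.6% of replication genes that fell were near the 31.8% of all tested genes. So were the 33.3% of nucleoporins and transport receptors that rose and the 35.3% that fell. Of 33 DNA damage response and repair genes 12 fell and 7 rose (3 without 60-65 μm A). The checkpoint kinases Atm (2.54 and 2.38 against 0.838 and 0.953 RPKM, -1.36) and Chek2 (2.88 and 2.78 against 1.15 and 1.46 RPKM, -1.06) fell, and Lig4, the ligase of end joining, rose from 2.99 and 2.93 to 7.13 and 6.98 RPKM (1.23). Of 38 replication licensing and fork genes 12 fell (7 without 60-65 μm A or without 60-65 μm B) and 7 rose, none by 2-fold. Among 51 nucleoporins and transport receptors 18 fell and 17 rose (11 without 60-65 μm A), with Rangap1, which activates the Ran GTPase, the lowest (12.9 and 13.4 against 3.45 and 3.91 RPKM, -1.81). Of 10 tested imprinted genes with methylation from the oocyte 5 fell (3 without 60-65 μm A) and 1 rose (2 without 10-30 μm B). That 1 was Mest (3.56 and 3.75 against 14.3 and 14.2 RPKM, 1.93), and Impact, a translation regulator, went from 5.15 and 5.05 to 1.63 and 1.80 RPKM (-1.51).

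Most of the 2-fold changes were partly reached in the intermediate classes. Of the log2 difference between the end classes the 1132 genes that rose had covered a median of 42.0% by 40-45 μm and 78.3% by 50-55 μm, and the 846 that fell 47.0% and 80.6%. In the single GV library 881 of the rising genes (77.8%) and 752 of the falling ones (88.9%) lay beyond the 60-65 μm mean. These shares describe genes chosen for their end points.

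DNA methylation was read in 1 whole-genome bisulphite library of 60-65 μm oocytes, a measurement that the RNA values did not choose, as the methylation level over gene bodies. The median body level was 32.9% for the 955 genes with enough CpG positions that rose by at least 2-fold, 19.99% for the 631 that fell by at least 2-fold and 32.1% for all 9156 tested genes that could be read. Genes that fell were also less expressed in these oocytes, at a median of 0.786 against 3.32 RPKM. Within genes of 5 to 20 RPKM at 60-65 μm the values were 35.6% (272 genes) and 20.4% (58 genes), where the gene spans still differed, at 38007 against 10535.5 bp. Among the 12 largest losses 11 bodies were below the median of all genes, such as Sohlh1 (7.21%) and Maged1 (9.71%), and Mov10l1 was above it at 62.3%. Of the 12 largest gains 10 could be read, 5 above that median and 5 below it, from Mettl7a2 (17.5%), Upp1 (21.2%) and Obox2 (24.7%) to Spry4 (38.3%), Dnmt3l (51.7%) and Oog4 (71.7%). Gene starts had a median of 3.42% in both sets. With 1 library these differences have no replicate check.

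**Figure D5:**
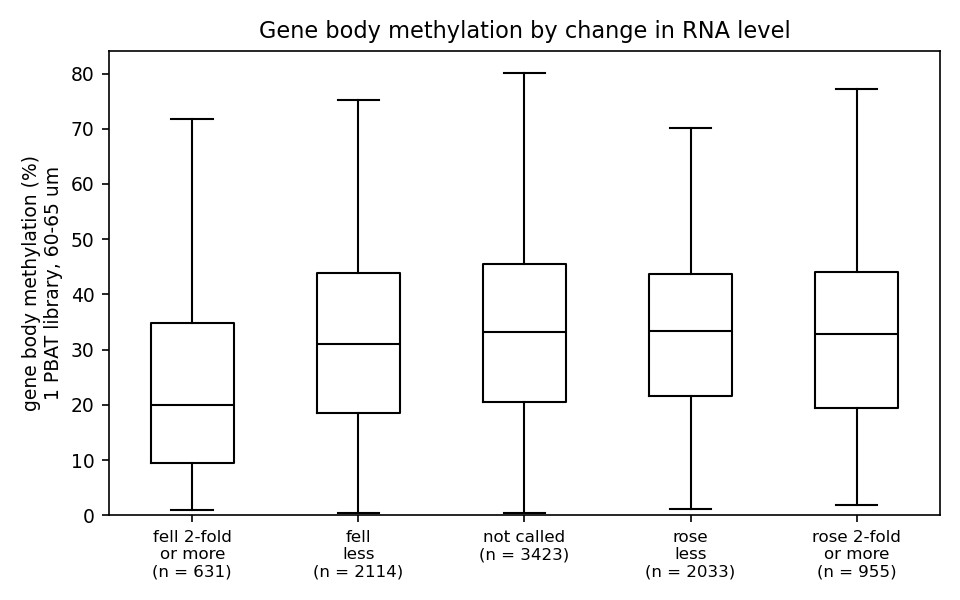
Gene body CpG methylation (percent) in 60-65 μm oocytes of genes that fell or rose by at least 2-fold, by less, or were not called, where the box spans the quartiles, the line is the median and whiskers reach 1.5 times the interquartile range. The genes that fell by at least 2-fold sit lowest, with a median of 19.99% against 31.0% to 33.4% in the other sets.

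Markers of other cell types also differed between the classes, at low level. Of the 17 granulosa cell markers 11 were higher in both 60-65 μm libraries than in both 10-30 μm libraries and none lower. Over all tested genes 40.2% were higher and 42.0% lower. Most markers of these lists lay below the minimum, where that percentage was not computed, so their counts have no matching background. Inha, Nr5a2 and Cyp19a1 passed the minimum, 2 of them only through the large oocytes, and Cyp19a1, the aromatase gene, went from 0.161 and 0.159 to 1.25 and 1.04 RPKM (2.25). Below the minimum, Fshr, the receptor for follicle-stimulating hormone, stood at 0.0436 and 0.0545 against 0.238 and 0.229 RPKM and Amh, the anti-Müllerian hormone gene, at 0.0967 and 0.0907 against 0.228 and 0.189 RPKM, while Foxl2, Fst, Wt1 and Nr5a1 were at or under 0.0642 RPKM in all 4 libraries. Of 8 stromal cell markers 6 were lower in both large-oocyte libraries, and the 3 that were tested passed only through the small oocytes (Col1a1 1.63 and 1.16 against 0.40 and 0.241 RPKM, -1.83). Of 7 endothelial cell markers 5 were higher and 1 lower. Pecam1 went from 0.567 and 0.531 to 4.70 and 4.19 RPKM (2.81), Tek from 0.476 and 0.629 to 1.19 and 1.11 RPKM (0.95) and, untested, Tie1 from 0.0819 and 0.0256 to 0.383 and 0.254 RPKM, while Cdh5 was at or under 0.0101 RPKM and Emcn at 0. All 6 theca and steroid cell markers were higher in both large-oocyte libraries and none passed the minimum, and their sum was 0.145 and 0.112 against 0.459 and 0.694 RPKM. Of 7 leukocyte markers 2 were higher and 1 lower, and of 6 erythroid markers 1 was higher. The part of such cells in the results was not tested.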

How the data were processed

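RNA was read in 9 libraries, of which 8 are the A and B pools of 4 size classes and 1 is of GV oocytes. The authors deposited RPKM per gene in a table whose name speaks of counts. Per the submitters' processing notes and the study's methods, RNA reads were trimmed with Trim Galore 0.2.8 and mapped to GRCm38 with TopHat2 2.0.9, with 1 alignment reported per read, so a read that fits several gene copies is counted at 1 of them. Bisulphite reads were trimmed with Trim Galore 0.3.5 and mapped with Bismark (0.10.0 for the library used), with duplicates removed. The study's methods name Cufflinks and SeqMonk for expression and for the analysis of RNA-seq data and do not say which made this table of RPKM. The deposited bisulphite file gives percent methylation with methylated and unmethylated read counts per CpG, and the reduced-representation files were not used. No column of another series and no comparison of the authors was used (0 columns of no sample).

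RPKM were scaled by trimmed mean factors (0.955 to 1.05, trimming 30% of ratios and 5% of levels) computed over the 8 growing-oocyte libraries and fitted as log2(RPKM + 0.1) with limma 3.58.1 in R 4.3.3 (trended variance, all 4 size classes in the fit, Benjamini-Hochberg over 10462 genes, threshold 0.05). The fit had no replicate block. The A and B deviations correlated among the 10-30, 40-45 and 50-55 μm classes (0.59 to 0.67) but not between 60-65 μm and the others (-0.22, -0.02 and 0.11), so the letters were not taken to pair all classes. An exact permutation test of 2 against 2 libraries cannot give less than 0.333. Simulated data with 100 genes at 2-fold and 100 at 4-fold, over the same 10462 genes, gave 75 and 99 calls, with 10 among 10262 unchanged genes. In the simulation no other gene changed and libraries varied independently, whereas 63.5% of genes were called in the data. Its rates were therefore not taken to hold for the data.

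Genes and lists were chosen with earlier results of these data known. Named were the 12 largest rises and falls among genes called, at 5 RPKM or more in the higher class, with classes that do not overlap and without Gm and Rik names, the 8 largest gains and losses of share, the extremes of each list and genes that the study's text names, and others are examples of their list. Depth was inferred from the smallest steps of the RPKM (69.8% to 72.4% of low values were within 0.08 of a whole number of reads), and 0.5 RPKM of a gene of the median length of 4321 bp is then 215 to 428 reads. Body methylation used positions of at least 5 reads, genes of at least 4 kb with at least 10 positions, and starts of 500 bp to each side with at least 5 positions. Promoters came from RefSeq (GRCm38.p6), with an entry for 78.3% of the tested genes.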

Additional observations from a re-analysis of the deposited data

How the results depend on the processing

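The counts of genes that rose and fell were within 1.5 times the reported ones in every alternative run: scaling, pseudocount, minimum level, the variance trend, 4 libraries only, a replicate block and leaving out each library. The lowest and highest counts were 2526 and 3368 for rises and 2431 and 3335 for falls when 1 library was left out, and 1059 to 1322 and 723 to 998 for the 2-fold sets. In the fits that left 1 library in a class, that library is assumed to vary like the other classes. Without a minimum level 4697 of 19418 genes rose and 4683 fell. The 2-fold counts depended on the pseudocount, which shrinks low genes: 547 rose with a pseudocount of 1, and 496 and 294 fell with 0.5 and 1. With the replicate block 3626 rose and 3642 fell (1134 and 850 by at least 2-fold), and with the letters of 60-65 μm crossed, chosen after seeing the data because the deviations of 10-30 and 60-65 μm correlated at -0.22, 3782 and 3715. With either block 12 of the 13 mitochondrial transcripts fell, against 10, as mt-Nd2 and mt-Nd4 were called (adjusted p of 5.32e-05 and 4.25e-05, crossed 0.0291 and 0.0123). The letters deviate together in 3 of the 4 classes but not at 60-65 μm, so these counts are not preferred.

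Left out 1 at a time, the fallen mitochondrial-genome transcripts ranged from 6 to 12 (6 without 60-65 μm A). The log2 ratio of the share of the oogenesin, Fbxw and Oas1 families was 0.80 with the 10 highest genes removed from the total, and that of the germ-cell transcription factors 0.82. With positions of at least 1 read and of at least 10 reads the median body methylation was 35.1% and 32.0% for genes that rose 2-fold and 25.3% and 17.5% for those that fell 2-fold, and the gene start median 4.23% and 2.48% against 3.90% and 2.55%. Dnmt1 and Zp1 changed sign without 10-30 μm A (-0.068 and -0.10) and reached 0.18 and 0.20 without 10-30 μm B, both uncalled in every setting. Of 4265 values for the 204 genes taken by the naming rule, 55 lost their call and none gained one. Of other genes given as not called, Rpl28, Rpl39, Zbed3, Cnot3, Furin, 9530026F06Rik and Lars2 were called with the block, Rpl36al and Nlrp14 with it crossed, and mt-Nd2, mt-Nd4, Cnot3, Furin and 9530026F06Rik with 4 libraries only. Without 10-30 μm B Zbed3 (1.40), Cnot3 (1.62), Furin (1.96) and Rpl36al (-0.61) were called, and without 10-30 μm A 9530026F06Rik (-1.72) and Lars2 (-6.33). The cause of these changes was not tested except where the construction shows it.

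Limits: 2 pools per class, a depth of 99.4 to 181 M reads in the 4 libraries compared, a larger spread before scaling at 10-30 μm than at 60-65 μm, and values that are shares of a library. A read that fits several gene copies was placed at 1 of them, and diameter and age of the animal cannot be told apart. Whether libraries of the size classes were prepared together is not stated in the labels or the study's methods.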

Other observations

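The small oocytes varied more between pools than the large ones. The median absolute difference between A and B was 0.187 on the log2 scale at 10-30 μm, 0.157 at 40-45 μm, 0.115 at 50-55 μm and 0.0955 at 60-65 μm, and 56, 15, 8 and 7 genes were at least 2-fold apart. Lars2, a mitochondrial tRNA synthetase gene, was at 0.889 RPKM in 10-30 μm A and 54.2 in B against 0.458 and 0.654 RPKM at 60-65 μm (log2 difference -3.49, adjusted p = 0.0559), so its large difference rests on 1 library (-0.64 without B, adjusted p = 0.0258). Zbed3, of the subcortical maternal complex, was at 75.4 and 180 and then at 197 and 212 RPKM (0.82, adjusted p = 0.123). 6 genes with a difference of at least 2-fold were not called, and besides Lars2 they were 9530026F06Rik, Cnot3, Furin, mt-Nd2 and mt-Nd4, of which all but Lars2 were higher in B than in A at 10-30, 40-45 and 50-55 μm.

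The highest rows of the table were Gm16211 (4335 and 3118 against 3756 and 3814 RPKM) and Hexdc (2970 and 2239 against 2560 and 2662 RPKM), which together held 6.74% of the RPKM at 10-30 μm and 6.79% at 60-65 μm. Genes with a name of the Gm or Rik kind, most of which lack a described role, were 1046 of those tested, and 171 rose and 108 fell by at least 2-fold. Over all 10462 tested genes 10.8% rose and 8.09% fell by as much.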
